A study of Mus musculus with 8 samples.

Results

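The genes of the interleukin-1 (IL-1) system and of the inflammasome were examined in RNA of CD11b+ cells, that is microglia and other myeloid cells, from the mouse brain. The set was a list of 10 named genes, *Il1a*, *Il1b*, *Il1rn*, *Il18*, *Il1r1*, *Il1rap*, *Nlrp3*, *Pycard*, *Casp1* and *Casp4*, of 20308 gene symbols in the files, and all 10 passed the filter on low counts that left 13407 genes for testing. The mice were F1 animals of C57Bl/6 and CD1, aged 14 or 15 days. CSF1 OE mice (n = 4) made the secreted form of CSF1 from a TRE/tTA transgene in a subset of GFAP+ cells, and control mice (n = 4) served as the controls for that overexpression. Which of the transgenes the control mice carried is not given in the sources used here. One hemisphere of each mouse was depleted of myelin on Percoll, CD11b+ cells were pulled down with magnetic beads, and 1 library was made per mouse. CSF1 is a growth factor that microglia need through its receptor CSF1R. The question was whether CSF1 overexpression in the brain goes with a different level of these inflammatory genes in CD11b+ cells.

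IL-1 alpha and IL-1 beta are cytokines that act through 1 receptor, IL1R1, which needs the accessory protein IL1RAP to signal, and IL1RN occupies that receptor without signalling. IL-1 beta and IL-18 are made as inactive precursors. An inflammasome is a complex in which a sensor such as NLRP3 and the adaptor ASC (encoded by *Pycard*) activate caspase-1, which cuts both precursors, while IL-1 alpha is active without that cut. Caspase-11, the product of mouse *Casp4*, responds to bacterial lipopolysaccharide inside the cell and cuts gasdermin D. Microglia are known as a main source of IL-1 in the brain, and *Casp1* and *Casp4* are known to be inducible by interferons. RNA levels do not show whether a precursor was cut or released.

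Total expected counts were between 12908195 and 15475488 in control mice and between 12053280 and 14356538 in CSF1 OE mice. Markers of homeostatic microglia were abundant in every library, with a summed level of 21879 to 38642 CPM (counts scaled by TMM to a library of 1000000) in control and 27896 to 39348 CPM in CSF1 OE mice over 10 of 10 genes, and *Csf1r* had 9722 ± 2240 and 10091 ± 1454 CPM (SD, n = 4 each). *Csf1* itself had 138.8 to 364 CPM in control against 167 to 400.1 CPM in CSF1 OE mice, but the transgene is driven in GFAP+ cells, so this is no check of the labels. The eluate also held RNA of other cells. Markers of border macrophages, which are CD11b+ too, summed to 1584 to 2509 CPM in control against 1277 to 1907 CPM in CSF1 OE, those of neurons to 83.0 to 305 against 39.0 to 193 CPM and those of red blood cells to 251 to 936 against 38.5 to 434 CPM. All 8, all 6 and all 5 of these markers, in that order, were lower in CSF1 OE, and none was called by edgeR. The part of border macrophages in the results was not tested. Control mouse 1934 had the lowest microglial sum and the highest sum of oligodendrocyte lineage markers (5494 CPM, against 2566 to 3958 CPM in the other control mice), and CSF1 OE mouse 2019 had the lowest (1369 CPM, against 2532 to 4476 CPM). In such a mixture, fewer cells of a type and less RNA per cell cannot be told apart.

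Of the 10 genes, *Il1a*, *Casp1* and *Casp4* had the lowest p-values, each with a higher level in CSF1 OE. None of the 10 was called differentially expressed by edgeR, where a call needed a Benjamini-Hochberg adjusted p under 0.05 over all genes tested and a fold change under 0.7 or of about that size upwards. Over all genes tested 0.44% were called, 0.388% as higher and 0.0522% as lower. These 3 genes had an unadjusted p under 0.05 with a higher level in CSF1 OE, as did 10.1% of all genes tested. DESeq2 called the same 3 (adjusted p = 0.00272 for *Il1a*, 0.00843 for *Casp1* and 0.000938 for *Casp4*), where it called 3.27% of all genes with an adjusted p. The trend method of limma called 0 of the 10 genes, and 57 of the 16842 genes in its fit. Of the 10 genes 7 were higher and 3 lower in CSF1 OE, with a median log2 fold change of 0.39, while 44.8% of all genes tested were higher and their median was -0.034.

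The sequences just upstream of the start sites are shown for these 3 genes, and for *Il1b*, the neighbour of *Il1a*, as the promoters whose transcripts were compared. Each is the 250 bases before the RefSeq start on GRCm38.p6, read 5′ to 3′ on the strand of the gene, and capitals mark matches to the searched letters.
Il1a (chr2:129309973-129310222, minus strand): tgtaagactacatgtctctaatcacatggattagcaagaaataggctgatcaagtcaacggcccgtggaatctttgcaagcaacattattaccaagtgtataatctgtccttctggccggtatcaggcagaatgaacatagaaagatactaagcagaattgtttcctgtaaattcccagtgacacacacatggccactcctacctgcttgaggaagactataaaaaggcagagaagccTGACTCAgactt
Il1b (chr2:129371140-129371389, minus strand): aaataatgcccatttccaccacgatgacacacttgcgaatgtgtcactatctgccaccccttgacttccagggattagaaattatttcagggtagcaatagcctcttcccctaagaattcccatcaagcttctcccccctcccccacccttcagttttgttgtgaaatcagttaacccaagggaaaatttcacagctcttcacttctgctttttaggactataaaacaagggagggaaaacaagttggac
Casp1 (chr9:5298267-5298516, plus strand): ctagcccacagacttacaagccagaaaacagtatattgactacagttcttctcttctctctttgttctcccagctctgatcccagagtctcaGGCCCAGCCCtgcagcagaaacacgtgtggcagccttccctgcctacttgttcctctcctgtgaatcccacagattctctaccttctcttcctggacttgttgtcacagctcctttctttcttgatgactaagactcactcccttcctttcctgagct
Casp4 (chr9:5308599-5308848, plus strand): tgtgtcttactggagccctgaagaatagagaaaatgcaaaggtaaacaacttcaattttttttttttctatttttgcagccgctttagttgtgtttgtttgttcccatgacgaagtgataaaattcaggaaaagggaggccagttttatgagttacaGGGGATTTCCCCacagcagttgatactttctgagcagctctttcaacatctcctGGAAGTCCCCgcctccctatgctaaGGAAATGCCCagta
Both strands were searched for an interferon-stimulated response element (ISRE, GAAA, any 2 bases, then GAAA), a gamma-activated site (GAS, TTCNNNGAA), a kB element (GGG, any 5 bases, then CC), an AP-1 site (TGANTCA) and a PU.1 site (GAGGAAGT). In *Il1a* the capitals are 1 AP-1 match that begins 12 bases before the start, and 6.75% of 32851 such windows of all genes held these letters. In *Casp1* they are 1 kB match that begins 158 bases before the start. In *Casp4* they are 5 kB matches, of which 3 overlap each other at 91 to 93 bases before the start, and 45.8% of all windows held a kB match. The *Il1b* window held none of the 5 motifs. A kB match stood in a window of 6 of the 10 genes (*Casp1*, *Casp4*, *Il1r1*, *Il1rap*, *Il1rn* and *Nlrp3*), as in 48.7% of all genes. An AP-1 match stood in 2 (*Il1a* and *Il1rn*), as in 7.82% of all genes. A PU.1 match stood in 1 (*Pycard*, beginning 44 bases before the start), as in 2.79% of all genes. No window of the 10 genes, 15 in all because some genes have several starts, held the ISRE or GAS letters, which 2.98% and 7.02% of all windows did. These matches describe letters and not binding.

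Levels of different genes were compared as CPM per kb of exon (GENCODE M21). The length counted every base that lies in an exon of any annotated transcript of the gene. It can exceed the length of the transcript that the cells make, which lowers the level, so the order of the genes depends on it. This length was 3800 bases for *Pycard* and 1907 bases for *Il1b*. Before division by length their control means were 56.5 ± 23.9 and 61.3 ± 20.1 CPM. In control mice *Il1a* had the highest level, with 162 ± 68.3 CPM per kb (SD, n = 4), followed by *Nlrp3* with 66.7 ± 16.2 and *Il1b* with 32.2 ± 10.5 CPM per kb. *Casp1* (15.8 ± 1.93), *Pycard* (14.9 ± 6.29) and *Il18* (12.9 ± 1.78 CPM per kb) came next, and their ranges overlapped, as did those of *Il1b* and *Casp1*. *Casp4* (3.22 ± 0.456), *Il1r1* (2.72 ± 1.08) and *Il1rap* (2.28 ± 0.442 CPM per kb) formed a lower group whose neighbours overlapped. *Il1rn* was the lowest, with 0.573 ± 0.293 CPM per kb. The ranges of neighbours did not overlap between *Il1a* and *Nlrp3*, between *Nlrp3* and *Il1b*, between *Il18* and *Casp4*, and between *Il1rap* and *Il1rn*. The cytokine *Il1a* and the sensor *Nlrp3* were more abundant per length than the receptor chains or the antagonist in these cells.

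**Figure D1:**
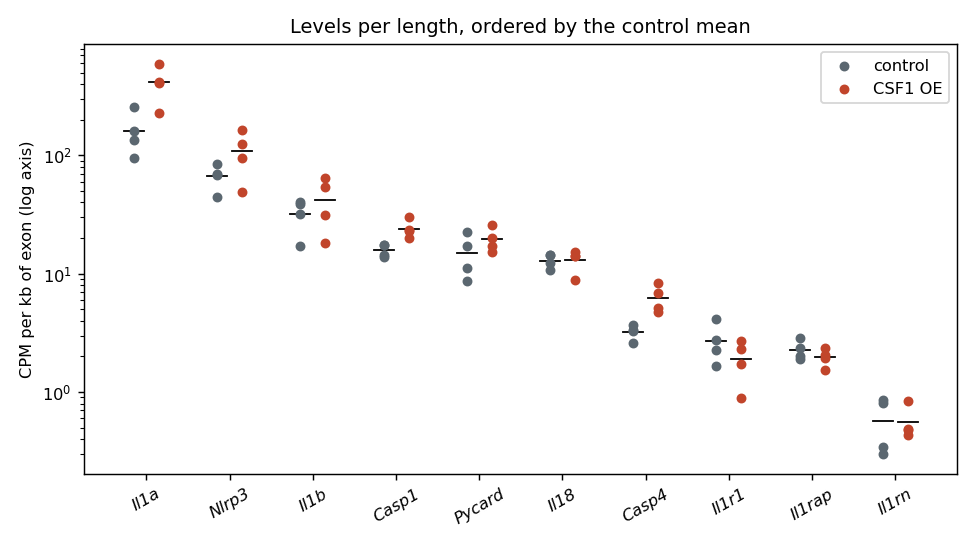
Level per length of each gene (CPM per kb of exon, log axis) in each mouse, with control mice in grey, CSF1 OE mice in red and a bar for the mean of 4 mice, ordered by the control mean. *Il1a* is at the top with 162 CPM per kb in control mice and *Il1rn* at the bottom with 0.573 CPM per kb.

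*Il1a*, on chromosome 2 from 129299610 to 129309972 (positions from GENCODE M21 on GRCm38), encodes IL-1 alpha. The control mice 1827, 1872, 1874 and 1934 had 505, 317, 267 and 188 CPM, and the CSF1 OE mice 1931, 1932, 1936 and 2019 had 1180, 454, 826 and 806 CPM. The CSF1 OE values of 1931, 1936 and 2019 lay above every control value, while that of 1932 lay below control mouse 1827, so that the groups overlapped by this 1 pair. The mean was 319 ± 135 CPM in control against 816 ± 296 CPM in CSF1 OE mice (SD, n = 4 each). The log2 fold change was 1.35 (SE 0.35, 95% interval 0.57 to 2.14, edgeR adjusted p = 0.108). This was the largest fold change of the 10 genes. The paper, which used another test, states that its RNA-seq found no increase of the transcript for IL-1 alpha in microglia. With any 1 mouse left out it stayed between 1.12 and 1.67, with adjusted p from 0.0539 to 0.289 (edgeR). A fit with an animal-number term, which sets mice 1931 to 1936 apart from the rest, called it at 1.64 (edgeR adjusted p = 0.0361). In that fit 9.5% of all genes tested were called. Control mouse 1934 is the only control in that range, and 2019 is the only CSF1 OE mouse outside it. Without both of these mice, a pair left out after seeing the data, the log2 fold change was 1.19 (edgeR adjusted p = 0.120).

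Genes that respond to cell isolation were measured beside it. The 10 immediate early genes, such as *Fos* and *Egr1*, summed to 9171 to 15858 CPM in control against 9226 to 12851 CPM in CSF1 OE mice, with 3 higher, 7 lower and none called by edgeR. With their mean level as a covariate (a fit chosen after seeing the data) the log2 fold change of *Il1a* was 1.40 (edgeR adjusted p = 0.0807). With a covariate for markers of endothelial, mural, astrocyte, oligodendrocyte lineage, neuronal and red blood cells, also added later, it was 1.07 (edgeR adjusted p = 0.0782).

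*Il1b*, on chromosome 2 from 129364570 to 129371139, encodes IL-1 beta, and 54597 bases lie between it and *Il1a*. The control mice had 74.2, 76.8, 61.4 and 32.9 CPM, and the CSF1 OE mice 104, 34.9, 60.2 and 123 CPM, in the same order of mice. CSF1 OE mice 1931 and 2019 were above every control mouse and the other 2 were within the control range. The mean was 61.3 ± 20.1 CPM in control against 80.5 ± 40.2 CPM in CSF1 OE mice, with a log2 fold change of 0.39 (SE 0.39, 95% interval -0.50 to 1.28, edgeR adjusted p = 0.649). The difference was smaller than the spread between mice. Its direction depended on the setting, since it was -0.26 with the covariate for other cell types and -0.082 without both control mouse 1934 and CSF1 OE mouse 2019, a pair left out after seeing the data. Without CSF1 OE mouse 2019 it was 0.11, and without CSF1 OE mouse 1932 it was 0.64.

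*Il1a* exceeded *Il1b* in every library. The ratio of their counts was 6.81, 4.13, 4.35 and 5.69 in the control mice and 11.3, 13.02, 13.7 and 6.56 in the CSF1 OE mice. It was higher in 3 CSF1 OE mice than in any control mouse, while that of CSF1 OE mouse 2019 lay within the control range. No test was run on this ratio.

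*Il18*, on chromosome 9 from 50554827 to 50581840, encodes IL-18, a cytokine that drives interferon-gamma production in T and NK cells. It had 14.7, 12.7, 14.9 and 11 CPM in the control mice and 14.6, 9.18, 15.9 and 14.6 CPM in the CSF1 OE mice. Apart from CSF1 OE mouse 1932, which was the lowest of all 8, the CSF1 OE mice had 14.6 to 15.9 CPM, at or just above the upper end of the control range. The log2 fold change was 0.026 (SE 0.19, 95% interval -0.40 to 0.45, edgeR adjusted p = 0.953), so a change as large as the fold threshold lay outside the interval in both directions.

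*Il1rn*, on chromosome 2 from 24336853 to 24351494, encodes the IL-1 receptor antagonist. It rested on 25 to 68 counts per library, with 4.43, 4.70, 1.89 and 1.66 CPM in the control mice and 2.71, 2.65, 2.39 and 4.69 CPM in the CSF1 OE mice. The CSF1 OE values all lay within the control range. The log2 fold change was -0.033 (SE 0.41, 95% interval -0.95 to 0.89, edgeR adjusted p = 0.971), an interval that leaves room for a change past the threshold in either direction, and its sign differed between settings. The ratio of *Il1rn* to *Il1a* counts was 0.00708 to 0.0148 in control and 0.00230 to 0.00582 in CSF1 OE mice, without overlap, and that of *Il1rn* to *Il1b* was 0.0308 to 0.0612 and 0.0261 to 0.0758, with overlap. These ratios were not tested.

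*Il1r1*, on chromosome 1 from 40225080 to 40317257, encodes the signalling receptor for both IL-1 cytokines. It had 10.5, 14.4, 26.6 and 17.7 CPM in the control mice and 17.2, 11.1, 14.7 and 5.66 CPM in the CSF1 OE mice. The groups overlapped, and CSF1 OE mouse 2019 was the lowest of all. The log2 fold change was -0.50 (SE 0.36, 95% interval -1.33 to 0.32, edgeR adjusted p = 0.520), and with any 1 mouse left out it lay between -0.71 (without CSF1 OE mouse 1931) and -0.22 (without control mouse 1874). With the animal-number term it was -0.88 (edgeR adjusted p = 0.173). Endothelial cells are known to carry this receptor, and 8 endothelial markers, all lower in CSF1 OE and none called by edgeR, summed to 616 to 1015 CPM in control against 307 to 716 CPM in CSF1 OE mice, with the lowest sum in mouse 2019. By mouse, in the order used for *Il1r1*, the endothelial sum was 616, 649, 957 and 1015 CPM in the control mice. It was 475, 569, 716 and 307 CPM in the CSF1 OE mice. None of these markers was at 0. With the covariate for other cell types, which pools endothelial markers with those of other cells, the log2 fold change of *Il1r1* was -0.22 (edgeR adjusted p = 0.747). The part of endothelial RNA in the level of *Il1r1* was not tested.

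*Il1rap*, on chromosome 16 from 26581704 to 26730117, encodes the accessory chain. It had 22.8, 21.5, 26.8 and 32.7 CPM in the control mice and 22.3, 23.4, 26.6 and 17.5 CPM in the CSF1 OE mice. The ranges overlapped except at their ends, where control mouse 1934 was the highest and CSF1 OE mouse 2019 the lowest. The log2 fold change was -0.21 (SE 0.17, 95% interval -0.59 to 0.17, edgeR adjusted p = 0.569). With the animal-number term it was -0.44 (edgeR adjusted p = 0.0484), which passed the threshold on p but not that on fold, while it was 0.032 without these 2 mice and 0.033 with the covariate for other cell types.

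*Nlrp3*, on chromosome 11 from 59541568 to 59566956, encodes the sensor of the NLRP3 inflammasome. The control mice had 276, 283, 341 and 182 CPM and the CSF1 OE mice 662, 199, 388 and 502 CPM. As in *Il1a*, CSF1 OE mice 1931, 1936 and 2019 were above every control mouse, and 1932 was among the lowest, next to control mouse 1934. The mean was 271 ± 65.8 CPM in control against 438 ± 195 CPM in CSF1 OE mice, with a log2 fold change of 0.69 (SE 0.33, 95% interval -0.060 to 1.45, edgeR adjusted p = 0.337). Leaving out CSF1 OE mouse 1932 gave 0.94 and leaving out CSF1 OE mouse 1931 gave 0.43, and with the covariate for other cell types it was 0.30.

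*Pycard*, on chromosome 7 from 127989708 to 127993867, encodes the adaptor ASC. It had 86.1, 64.9, 42.1 and 32.8 CPM in the control mice and 65.5, 57.8, 76.7 and 97.5 CPM in the CSF1 OE mice. The control values spanned most of the CSF1 OE range, and 1 CSF1 OE mouse, 2019, was above them. The log2 fold change was 0.40 (SE 0.29, 95% interval -0.26 to 1.06, edgeR adjusted p = 0.525). It was 0.060 without both control mouse 1934 and CSF1 OE mouse 2019, and 0.81 with the animal-number term (edgeR adjusted p = 0.0590).

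*Casp1*, on chromosome 9 from 5298517 to 5307265, encodes caspase-1, the protease that matures IL-1 beta and IL-18. The control mice had 20.7, 26.1, 26.2 and 21.7 CPM and the CSF1 OE mice 34.7, 29.8, 34.1 and 44.9 CPM. All 4 CSF1 OE mice were above all 4 control mice. The mean was 23.7 ± 2.89 CPM in control against 35.9 ± 6.38 CPM in CSF1 OE mice, a 1.51-fold difference and a log2 fold change of 0.60 (SE 0.14, 95% interval 0.27 to 0.93, edgeR adjusted p = 0.0937). With any 1 mouse left out it lay between 0.48 and 0.68.

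*Casp4*, on chromosome 9 from 5308828 to 5336783, encodes caspase-11, and 1562 bases lie between it and *Casp1*. The control mice had 12.1, 12.5, 9.60 and 13.6 CPM and the CSF1 OE mice 30.7, 17.6, 25.5 and 19.1 CPM. Again the groups did not overlap. The mean was 11.95 ± 1.69 CPM in control against 23.2 ± 6.04 CPM in CSF1 OE mice, a 1.94-fold difference and a log2 fold change of 0.96 (SE 0.20, 95% interval 0.51 to 1.40, edgeR adjusted p = 0.0634). This was the lowest adjusted p of the 10 genes, just above the threshold. With any 1 mouse left out the log2 fold change lay between 0.80 and 1.07, with adjusted p from 0.0679 to 0.202 (edgeR).

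In both caspase genes each of the 4 CSF1 OE mice exceeded each control mouse, while 10.3% of all genes tested had groups apart, 6.84% with CSF1 OE higher and 3.45% with it lower. They are related in sequence and lie side by side, but no run of 50 bases of either gene's GENCODE M21 transcripts was found in a transcript of another gene. Both were called with the animal-number term (adjusted p = 0.0249 for *Casp1* and 0.0404 for *Casp4*, edgeR), a fit in which 9.5% of all genes were called. With the covariate for other cell types *Casp4* was called (log2 fold change 0.999, edgeR adjusted p = 0.0377) and *Casp1* was not (0.43, adjusted p = 0.0677). In that fit, chosen after seeing the data, 500 of 13407 genes were called, and 51.4% of the called genes were higher. Within the animals numbered 1931 to 1936 (1 control, 3 CSF1 OE) the difference in mean log2 CPM was 0.81 for *Casp4* and 0.59 for *Casp1*, and in the other animals (3 control, 1 CSF1 OE) it was 0.75 and 0.89.

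**Figure D2:**
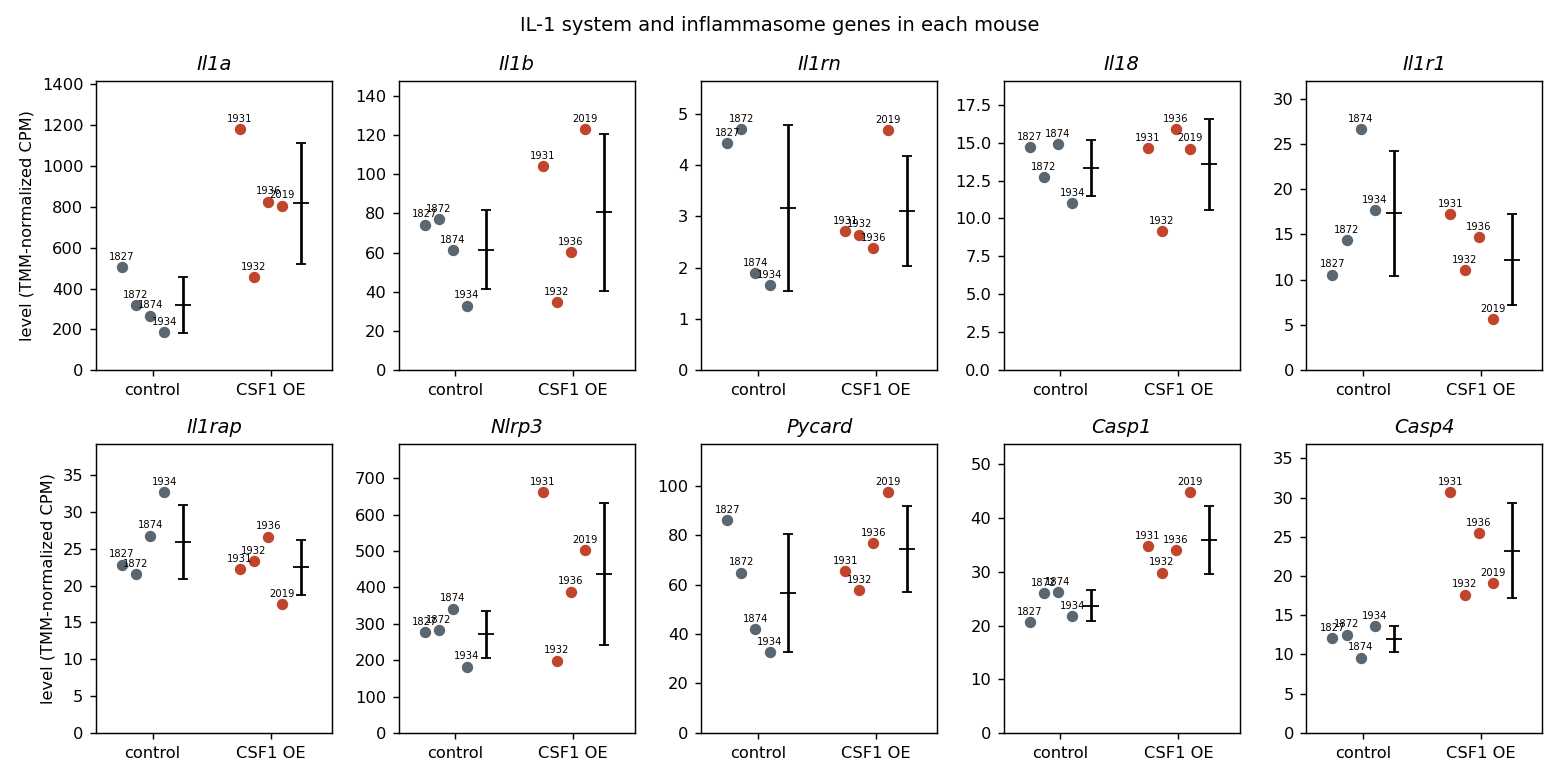
Level of each of the 10 genes (TMM-normalized CPM, axes from 0) in the 4 control mice (grey) and the 4 CSF1 OE mice (red), each point with its animal number, and beside each group its mean with the SD as error bar. The genotypes are apart in *Casp1* and *Casp4*, and 3 of 4 CSF1 OE mice are above all control mice in *Il1a* and *Nlrp3*.

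The mice differed among themselves in a partly shared order. Control mouse 1934 had the lowest level of all 8 mice in *Il1a*, *Il1b*, *Il1rn*, *Nlrp3* and *Pycard* and the highest in *Il1rap*. CSF1 OE mouse 2019 was the highest in *Il1b*, *Pycard* and *Casp1* and the lowest in *Il1r1* and *Il1rap*, and CSF1 OE mouse 1931 was the highest in *Il1a*, *Nlrp3* and *Casp4*. Neutrophils, which are CD11b+ and are known to express *Il1b* and *Il1rn*, were looked for by 10 markers, of which 9 were in the files and 8 were tested, 7 higher and 1 lower and none called by edgeR. Their summed level was 52.6 to 116 CPM in control against 19.1 to 243 CPM in CSF1 OE mice, highest in mouse 2019 and lowest in mouse 1931, and none was at 0. CSF1 OE mice 2019 and 1931, with the highest and the lowest sum, both had high *Il1b*. The part of neutrophil RNA in the level of *Il1b* was not tested. Blood monocyte markers, 7 of 8 in the files and all 7 tested, with 2 higher and 5 lower, summed to 40.7 to 56.8 CPM in control against 42.7 to 79.7 CPM in CSF1 OE mice. Of the 2 higher, *Plac8* had 7.28 ± 3.58 CPM in control against 23.7 ± 11.4 CPM in CSF1 OE mice, without overlap. Among the 5 lower were *Ly6c2* (log2 fold change -0.84) and *Ccr2* (-0.57), and none of the 7 was called by edgeR. The part of monocyte RNA in the results was not tested.

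**Figure D3:**
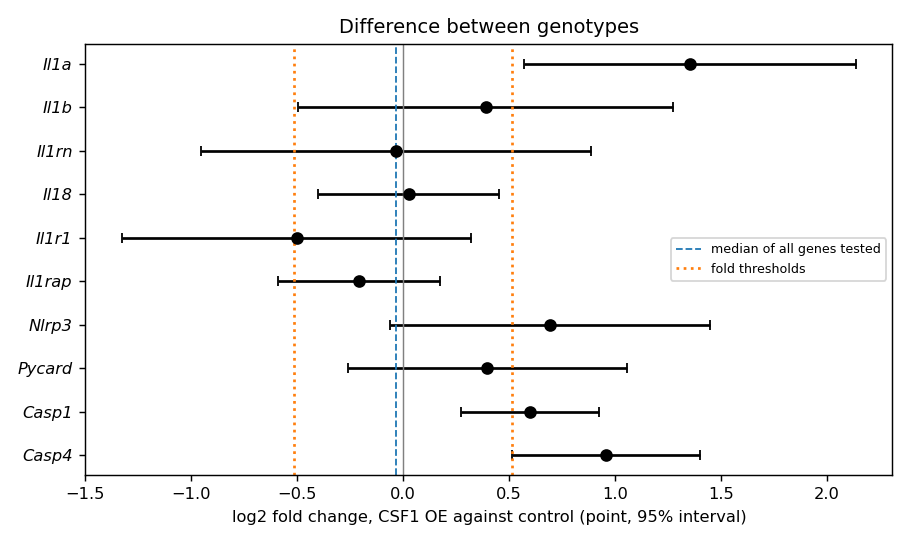
Log2 fold change of CSF1 OE against control (points) with its 95% interval (bars) for the 10 genes, with the median of all genes tested (-0.034, dashed) and the fold thresholds on both sides of 0 (dotted). The intervals of *Il1a*, *Casp1* and *Casp4* lie above 0 and those of the other 7 genes include 0.

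The rest of the pathway was described by lists of genes, with 67 genes tested in all, 38 higher and 29 lower in CSF1 OE mice. None was called by edgeR or by limma's trend method, and DESeq2, which called 3.27% of all genes with an adjusted p, called 4 (*Il1rl2* and *Gbp2* higher, *Sigirr* and *Nlrc4* lower). An unadjusted p under 0.05 was found in edgeR for 12 of the higher and 5 of the lower genes, where 16.5% of all genes tested had one, 10.1% as higher and 6.44% as lower.

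Among the other IL-1 family ligands and the IL-18 binding protein, 3 of 7 genes were tested, 1 higher and 2 lower, with a median log2 fold change of -0.097. *Il33*, which encodes an alarmin of the family, had 1.77 ± 0.570 CPM in control against 2.15 ± 0.822 CPM in CSF1 OE mice. *Il1f9* (IL-36 gamma) had a log2 fold change of -0.36 (SE 0.70) and *Il18bp*, the secreted inhibitor of IL-18, of -0.097 (SE 0.21), with adjusted p of 0.816 and 0.833 from edgeR. All 3 were sparse, at under 4 CPM.

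Of 8 other receptors of the family, 5 were tested, 1 higher and 4 lower, with a median log2 fold change of -0.35. *Il1rl2*, the receptor for IL-36, had 11.8 to 25.5 CPM in control against 25.5 to 40.5 CPM in CSF1 OE mice, with a log2 fold change of 0.94 (SE 0.23, edgeR adjusted p = 0.103). *Sigirr*, which encodes an inhibitory receptor of the family, had 4.97 to 7.18 CPM in control against 3.45 to 4.19 CPM in CSF1 OE mice, without overlap, and a log2 fold change of -0.75 (SE 0.19, edgeR adjusted p = 0.104). These 2 genes were both called by DESeq2 and with the animal-number term. *Il18rap*, a chain of the IL-18 receptor, had 2.05 ± 0.976 CPM in control against 1.05 ± 0.483 CPM in CSF1 OE mice, with overlap.

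Of 12 other sensors, 8 were tested, 7 higher and 1 lower, with a median log2 fold change of 0.37. *Aim2*, the sensor of cytosolic DNA, had 102 ± 7.05 CPM in control against 130.7 ± 12.2 CPM in CSF1 OE mice without overlap, and a log2 fold change of 0.36 (SE 0.089, edgeR adjusted p = 0.0973). *Naip5*, which binds flagellin, had a log2 fold change of 0.41 (SE 0.14, edgeR adjusted p = 0.191). The genes of the Naip family are close paralogs, so that reads can be divided among them. The 1 lower sensor was *Nlrc4*, the partner of the Naip proteins, with 8.20 to 14.1 CPM in control against 3.88 to 8.67 CPM in CSF1 OE mice. Its log2 fold change was -1.11 (SE 0.29, edgeR adjusted p = 0.120), and without CSF1 OE mouse 2019 it was called at -1.45 (edgeR adjusted p = 0.0439).

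Of 12 regulators of inflammasome assembly, 11 were in the files and tested, 5 higher and 6 lower, with a median log2 fold change of -0.0072. *Gbp2*, an interferon-induced GTPase that acts on bacterial membranes, had 10.9 to 14.1 CPM in control against 14.3 to 24.7 CPM in CSF1 OE mice without overlap, and a log2 fold change of 0.70 (SE 0.18, edgeR adjusted p = 0.109). *Txnip*, an NLRP3-binding protein, had 2492 ± 568 CPM in control against 1628 ± 549 CPM in CSF1 OE mice, with overlap, and *Brcc3*, which removes ubiquitin from NLRP3, had 18 ± 1.47 and 21.2 ± 4.22 CPM. Their log2 fold changes were -0.61 (edgeR adjusted p = 0.271) and 0.24 (adjusted p = 0.453).

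Of 9 genes of executors and proteases all were tested, 4 higher and 5 lower, with a median log2 fold change of -0.061. *Capn2*, which encodes a calpain subunit, had 45.3 ± 9.39 CPM in control against 31.8 ± 5.70 CPM in CSF1 OE mice (log2 fold change -0.51, SE 0.18, edgeR adjusted p = 0.204). *Dfna5*, which encodes gasdermin E, did not pass the test either (log2 fold change -0.51, edgeR adjusted p = 0.423).

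All 20 genes of the signalling proteins below the receptor were tested, 14 higher and 6 lower, with a median log2 fold change of 0.083 and a range from -0.27 to 0.32. The ubiquitin ligase *Traf6* had 55.7 ± 4.03 CPM in control against 66.6 ± 7.17 CPM in CSF1 OE mice (log2 fold change 0.26, edgeR adjusted p = 0.234), and the kinase *Irak1* 107 ± 10.2 and 124 ± 6.42 CPM, without overlap (0.22, adjusted p = 0.260). *Ube2v1*, a cofactor of ubiquitin chain formation, had a log2 fold change of 0.17 (edgeR adjusted p = 0.317).

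Of 11 genes known to be induced by IL-1 receptor signalling, all were tested, 6 higher and 5 lower. The median log2 fold change was 0.24, with a range from -0.69 to 0.95. The genes described here, those with the lowest unadjusted p, were all among the higher ones. *Nfkbiz*, a nuclear cofactor of NF-kB, had 438 ± 72.8 CPM in control against 711 ± 249 CPM in CSF1 OE mice (log2 fold change 0.70, SE 0.24, edgeR adjusted p = 0.207). *Zc3h12a*, which encodes an RNase that degrades cytokine transcripts, had 102 ± 15.0 and 141 ± 23.1 CPM (log2 fold change 0.47, SE 0.14, edgeR adjusted p = 0.168). *Il6* had 1.47 ± 0.360 and 2.87 ± 1.09 CPM (log2 fold change 0.95, SE 0.35, edgeR adjusted p = 0.226), from 18 counts in the lowest library. The groups overlapped in all 3.

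**Figure D4:**
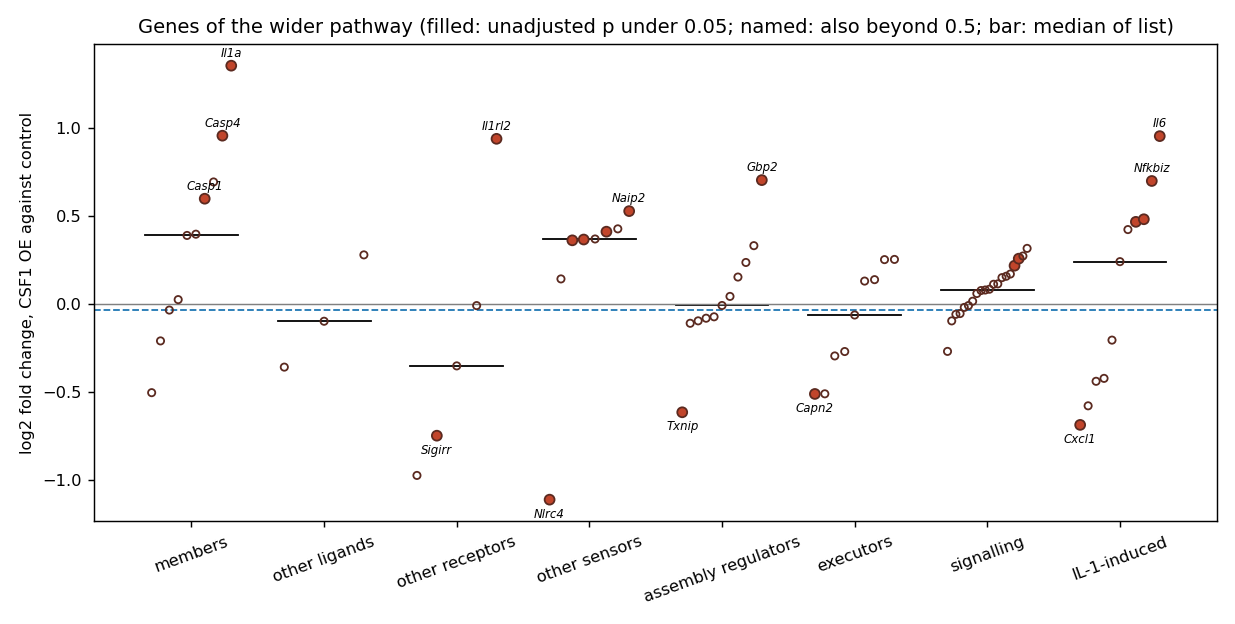
Log2 fold change of CSF1 OE against control (vertical axis) for every tested gene of the 10 genes (members) and of the 7 lists of the wider pathway, with filled points at an unadjusted p under 0.05, a bar for the median of each list and a dashed line for that of all genes (-0.034). *Nlrc4*, at -1.11, is the only sensor below the line.

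**Figure D5:**
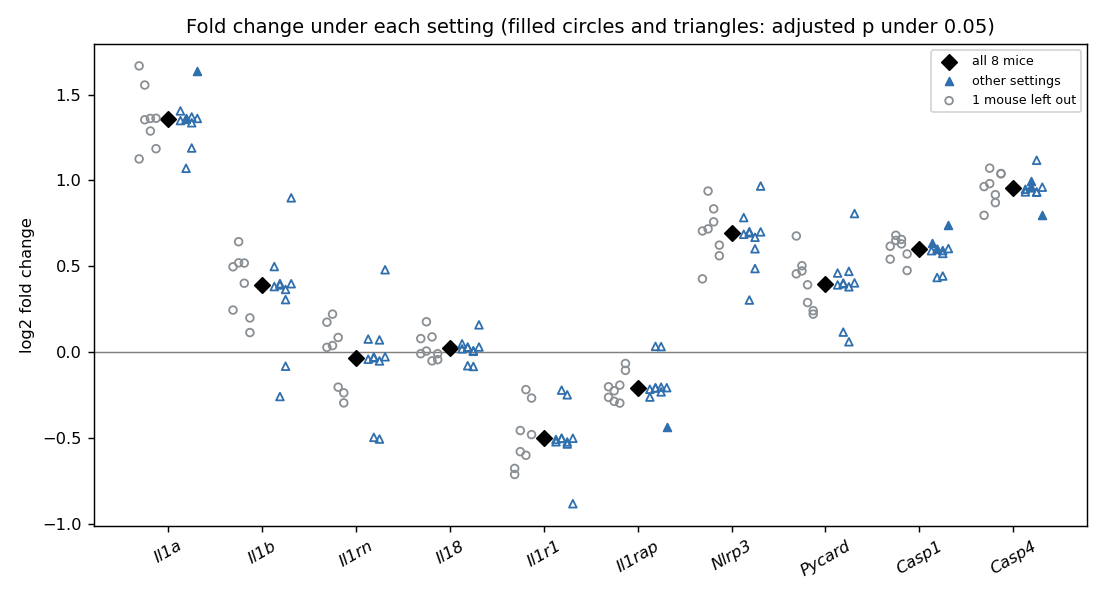
Log2 fold change of each of the 10 genes with all 8 mice (diamonds), with 1 mouse left out (circles) and under the other settings (triangles). Circles and triangles are filled where the adjusted p was under 0.05, and diamonds are always filled. *Il1a*, *Nlrp3*, *Pycard*, *Casp1* and *Casp4* stay above 0 and *Il1r1* below 0 in all settings shown. *Il1b*, *Il1rn*, *Il18* and *Il1rap* lie on both sides of 0.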

How the data were processed

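Libraries were made from CD11b+ brain cells, 1 for each of 4 control and 4 CSF1 OE mice. The expected counts per gene symbol were deposited without normalization. According to the submitters' processing notes and the paper's methods, the authors used Bowtie 1.0.0 and RSEM 1.2.7 on mm10, which is the build of GRCm38. Annotation and strand are not given in the sources used here. In each library 20.8% to 26.5% of the genes had an expected count that was not whole, and these were rounded. The authors also deposited a normalized signal, these counts divided by 1 size factor per mouse, which was used for 1 alternative.

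Tests were made with edgeR 4.0.16 in R 4.3.3 (TMM, filterByExpr, glmQLFit, glmQLFTest), two-sided and adjusted by Benjamini-Hochberg over all genes tested. The 95% intervals come from the standard error of that fit. The authors' fold thresholds were kept, and their own test was not run. The edgeR p-values set the difference between the genotypes against the variation between mice, whose estimate draws partly on all genes tested. The 10 genes and the lists of the wider pathway were chosen with earlier results of these data known, and 5 of the genes named here stand in the study's own table of differentially expressed genes made from these libraries. All 10 genes are described, and of each other list the 3 genes with the lowest unadjusted p, apart from 1 gene that is not reported here. Intervals of counts and a floor of 3 counts, 0.177 to 0.266 CPM, cover counting error only. No column was left unmapped (0 columns).

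Alternatives were DESeq2 1.42.0, limma 3.58.1 with its trend method on log2(normalized value + 1), upper-quartile factors, a robust prior, a looser filter (any count) and a stricter one (10 counts or more in each library), an animal-number term (mice 1931 to 1936, 1 control and 3 CSF1 OE, apart from the rest), each mouse left out, and other thresholds. The fits with a covariate, and that without control mouse 1934 and CSF1 OE mouse 2019, were chosen after seeing the data. The fits were first tested on simulated data with known changes.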

Additional observations from a re-analysis of the deposited data

Results flagged for a closer look

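In 62 groups of 4 mice, formed by the 10 genes and the other named genes in each genotype, 4 had a highest or lowest mouse far from the other 3, where chance gives about 5% of groups. *Il18* in CSF1 OE mouse 1932 was low, with 9.18 CPM against 14.6 to 15.9 CPM in the other CSF1 OE mice. *Irak1* in control mouse 1934 was low, with 91.5 CPM against 111 to 113 CPM. *Ube2v1* in CSF1 OE mouse 1931 was high, with 113 CPM against 97.2 to 99.6 CPM. *Nlrc4* in CSF1 OE mouse 2019 was high, with 8.67 CPM against 3.88 to 4.35 CPM.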

How the results depend on the processing

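The number of the 10 genes called was 0 on all 8 mice and 0 with any 1 mouse left out. It was 3 with DESeq2 and 3 with the animal-number term (*Il1a*, *Casp1* and *Casp4* in both), 1 with the covariate for immediate early genes (*Casp1*) and 1 with that for other cell types (*Casp4*). Over all genes 59 were called on all 8 mice, 424 with DESeq2, 19 with upper-quartile factors, 1273 with the animal-number term, 3 at an adjusted p under 0.01, 3 with glmTreat, 125 and 500 with the covariates for immediate early genes and other cell types, and 166 without both control mouse 1934 and CSF1 OE mouse 2019. Leaving out 1 mouse gave from 3 (without control mouse 1872 or 1874) to 164 genes (without control mouse 1827). Of the called genes 88.1% were higher on all 8 mice, 63.2% with DESeq2, 23.7% with the animal-number term, 51.4% with the covariate for other cell types and 62.7% without both mice. Of the other receptors 2 were called with DESeq2 and 2 with the animal-number term, and of the other sensors 1 with DESeq2, 3 with that term, 1 with each covariate, 1 without both mice and 0 to 1 with 1 mouse left out. With DESeq2 1 regulator was called, and with the animal-number term 1 signalling gene and 1 executor.

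Signs turned in 6 genes. *Il1b* was -0.26 with the covariate for other cell types and -0.082 without both mice, and *Il1rap* 0.033 and 0.032. *Il1rn* was 0.071 with limma, 0.48 with the animal-number term, 0.076 with the covariate for immediate early genes and -0.30 to 0.22 with 1 mouse left out. *Il18* was -0.080 with the covariate for other cell types, -0.084 without both mice and -0.051 to 0.18 with 1 mouse left out. *Il1f9* was 0.15 with limma, 0.076 with that covariate, 0.31 without both mice and -0.72 to 0.15 with 1 mouse left out, and *Il18bp* was 0.0055 with the animal-number term. The cause was not tested. No paired analysis was possible because the mice of the genotypes share no number. The common biological coefficient of variation was 0.228. *Il1rap* had an adjusted p under 0.05 in 1 setting, the animal-number term.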
